A study of Mus musculus with 6 samples.

Results

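The genes around *Myog* on mouse chromosome 1 were examined in cells in which an enhancer of *Myog* had been targeted for repression. A gene was included if its annotation on GRCm38 overlapped the interval from 132289989 to 136289989, which is 2 Mb on each side of the *Myog* start, and if its counts summed to at least 30 over 6 RNA-Seq libraries. *Myog* itself and the muscle genes *Tnni1*, *Tnnt2* and *Cacna1s* were left out by name and serve below as a reference. Of the 130 genes annotated in the interval, 44 had no count, 25 others summed to fewer than 30, and 57 were included, out of 16063 genes in the genome with at least 30 counts. They comprised 46 protein-coding genes and 11 others, with 24 starting on the side of lower coordinates from the enhancer and 33 on the side of higher coordinates.

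*Myog* encodes myogenin, the transcription factor that drives the terminal differentiation of myoblasts into multinucleated myotubes. Enhancers are distal stretches of DNA that raise the transcription of genes in the same chromosomal neighborhood. The KRAB domain is a repressor that recruits machinery for silent chromatin, and such chromatin can extend beyond the site where it starts. A stretch of chromosome around a muscle regulator usually holds muscle genes, genes of other tissues and genes that nearly every cell uses, side by side.

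C2C12 is a mouse myoblast line that forms myotubes when serum is withdrawn. Cells of both groups received lentivirus (multiplicity of infection 100), were kept under puromycin at 2 μg/ml with no cloning step described, and were differentiated in 2% horse serum for 5 days. Both expressed dCas9-KRAB, a Cas9 without nuclease activity joined to the KRAB domain, from a human ubiquitin C promoter. The 3 dCas9-KRAB libraries came from cells with no enhancer sgRNA, and the 3 dCas9-KRAB-En5 libraries from cells that also received 2 sgRNAs against the enhancer Myog-En5. No group with an sgRNA against another site was sequenced in these libraries, so the presence of an sgRNA and the targeting of Myog-En5 cannot be told apart.

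Myog-En5 spans 519 bp at chr1:134283085-134283603 and ends 6386 bp before the start of *Myog* (ENSMUSG00000026459, chr1:134289989-134292548, positive strand). The distance of a gene is measured from the nearest edge of Myog-En5 to the gene start. The targets of its sgRNAs lie within Myog-En5 and are shown 5′ to 3′ with the PAM, the short motif that Cas9 requires, in capitals. The first lies at chr1:134283252-134283274 on the positive strand, 6715 bp from the *Myog* start, and the second at chr1:134283558-134283580 on the negative strand, 6409 bp from it.
Myog-En5-sgRNA1: gaaggggttactgtcggcagAGG
Myog-En5-sgRNA2: gaccggaagattgaaccactGGG

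Counts per library ranged from 31831093 to 73988425, so that 3 counts corresponded to 0.0406 to 0.0943 CPM, the counts after scaling every library to the same total. This floor covers counting error only. The library of dCas9-KRAB-En5 replicate 3 stood apart, with 13991 genes listed against 17084 to 19395 in the others. Nothing in the labels says that the replicates of a group were independent cultures, so the p-values measure the spread between these libraries, which may be technical. *Myog* had 43211, 68488 and 74845 counts in the dCas9-KRAB libraries and 12, 0 and 0 in those of dCas9-KRAB-En5, each in the order of replicates 1 to 3 that is kept throughout. This difference in the targeted gene went in the direction of the labels, with a log2 fold change of -13.35 (SE 1.24, adjusted p = 5.34e-05 in edgeR's quasi-likelihood test).

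The identity of the cells was checked with marker genes before the neighbors of *Myog* were compared. All 10 skeletal muscle markers fell, with a summed level of 15870 to 18560 TPM (a level scaled for gene length and for the total of the library) in dCas9-KRAB and 15.4 to 23.5 TPM in dCas9-KRAB-En5. None of them was at 0 in all 3 dCas9-KRAB-En5 libraries, although *Myod1*, the determination factor of myoblasts, had only 3, 1 and 0 counts there. All 12 macrophage markers had counts in every library of this myoblast line, summing to 3330 to 3941 TPM in dCas9-KRAB and 4728 to 7843 TPM in dCas9-KRAB-En5. Of these, *Adgre1* rose and the others did not pass the test. The list did not move as a whole. *Fcgr1*, *Aif1*, *Mpeg1* and *Spi1* had negative log2 fold changes (-1.84, -1.63, -1.10 and -0.32), and the other markers had positive ones of up to 2.75. The macrophage markers in every library and the near absence of muscle markers in dCas9-KRAB-En5 go against the labelled cell type. The identity of the cultures is therefore in doubt, and each fold change compares these cultures whatever cells they held. In RNA from a whole culture, fewer cells of a type and less RNA per cell cannot be told apart, and the part of either marker list in the changes of single genes below was not tested.

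Genes were compared as dCas9-KRAB-En5 over dCas9-KRAB on the log2 scale and called where the adjusted p did not exceed 0.01 and the change was at least 1 in size. Of the 57 genes near *Myog*, 48 passed the filter on low counts, and 6 of these fell. The 6 were *Mybph*, *Chil1*, *Adora1*, *Cyb5r1*, *Shisa4* and *Klhdc8a*, and they made up 12.5% of the genes tested in the interval, beside 4.67% called lower among all 14378 genes tested. The 2 genes that rose, *F730311O21Rik* and *Ppp1r12b*, made up 4.17%, beside 1.52% of all genes. Elsewhere on chromosome 1, 44 of 823 genes fell (5.35%) and 18 rose (2.19%).

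The median change of the 48 genes was 0.17, beside 0.08 over all genes tested, and the median size of change was 1.22, beside 0.89. In 13 of the 48, every dCas9-KRAB-En5 library was below every dCas9-KRAB library in TPM, and in 3 every one was above, beside 19.7% and 7.76% of all genes tested. An unadjusted p under 0.05 was found for 23 of the 48, beside 32.9% of all genes tested. The low-count filter asks for about 0.247 CPM in 3 libraries, and *Mybph*, *Chil1*, *Adora1*, *Klhdc8a*, *Sox13* and *Pik3c2b* reached this level in dCas9-KRAB alone, so these genes could only be lower. They include 4 of the 6 genes that fell, and the share of members that fell is therefore no support for a difference between the interval and the genome. No member reached this level in dCas9-KRAB-En5 libraries alone. *F730311O21Rik*, however, reached it in 3 dCas9-KRAB-En5 and only 2 dCas9-KRAB libraries. It therefore passed only with the group in which it is high, and the share of members that rose is no support for such a difference either. The 9 genes that were not tested (*Gm28609*, *Fmod*, *Lgr6*, *Gm26280*, *Gm15445*, *Gm26642*, *Lad1*, *Gm37759* and *Gm15850*) had mean levels of 0.0949 to 0.365 CPM. When replicate numbers were added to the model as a block, 8 genes fell and 2 rose, beside 6.79% and 3.94% of all genes, and the additions were *Ppfia4* and *Prelp*. No filter on low counts gave 8 lower and 6 higher, beside 5.14% and 4.32% of all genes. A filter of at least 10 counts in every library gave 2 and 1, beside 2.91% and 1.76%, since it removes genes without counts in a group. An adjusted p of at most 0.05 gave 9 and 5, beside 9.60% and 7.43%. Scaling by total counts alone left 6 lower and 0 higher in edgeR, beside 3.59% and 0.487% of all genes.

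**Figure D1:**
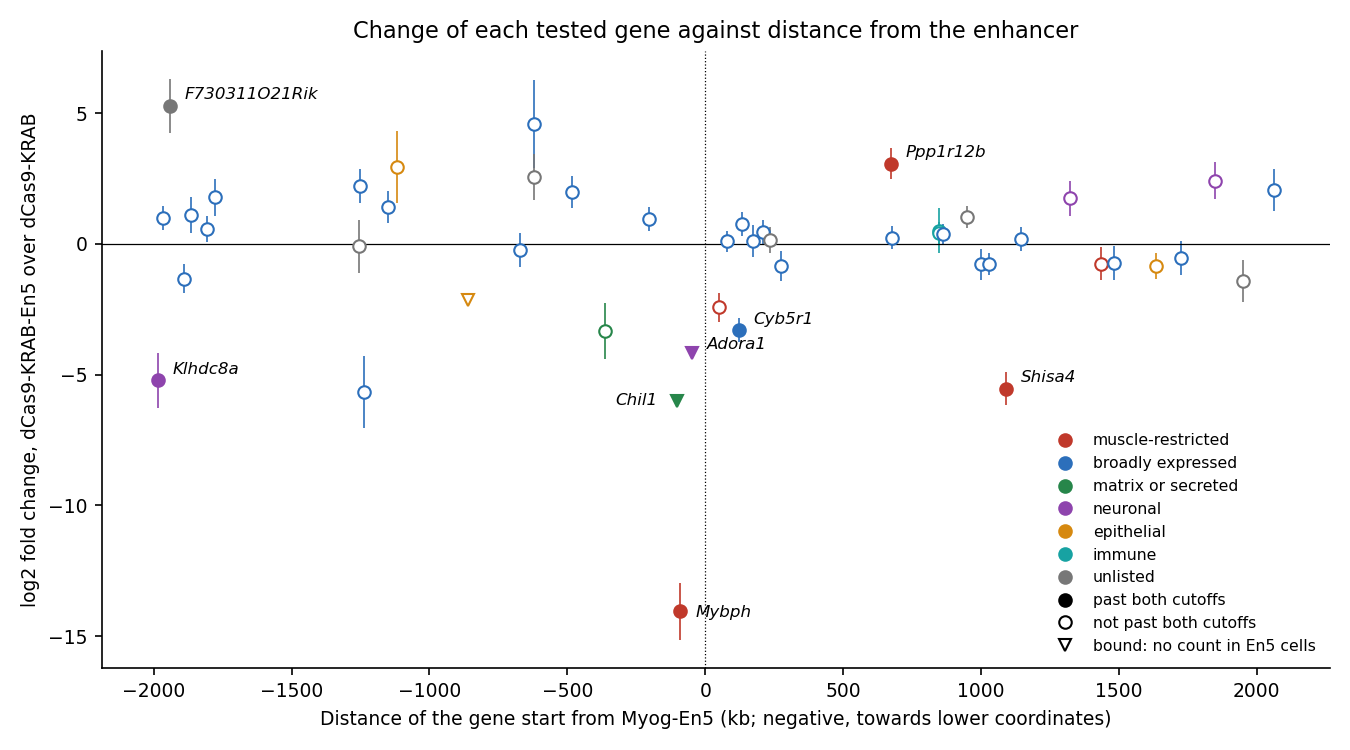
The log2 fold change (y axis) of each of the 48 tested genes is plotted against the distance of its start from Myog-En5 in kb (x axis), with bars for the SE, colors for the gene list and filled symbols for calls. Triangles mark genes with no count in dCas9-KRAB-En5, drawn at the bound that 3 counts per library allow. *Mybph*, *Chil1* and *Adora1* lie low just left of the enhancer, while most genes just right of it lie close to 0, apart from *Ppfia4* and *Cyb5r1*.

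The question of whether the change depended on distance from the enhancer was addressed in 4 classes of 500 kb. Within 500 kb, 4 of 14 tested genes fell (0 rose), beside 4.67% lower and 1.52% higher among all genes tested, and the median change was -0.37. Of these 4, *Mybph*, *Chil1* and *Adora1* had passed the filter through dCas9-KRAB alone. With the replicate block 6 of the 14 fell, *Prelp* and *Ppfia4* being added, beside 6.79% of all genes. From 500 kb to 1 Mb, 0 of 10 fell and 1 rose, with a median of 0.47. Between 1 Mb and 1.5 Mb 1 of 12 fell (median -0.41), and beyond that 1 of 12 fell and 1 rose (median 0.79). The calls lay from 47.7 kb to 1984 kb from the enhancer. The few calls beyond 500 kb stand beside 4.67% lower and 1.52% higher among all genes tested, and *Klhdc8a* among them passed the filter through dCas9-KRAB alone. Their positions are therefore no result about distance.

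For the class from 500 kb to 1 Mb, where edgeR called 0 genes lower, 1 gene was lower at an unadjusted p under 0.05 (beside 16.3% of all genes tested) and DESeq2 called 1 lower (beside 8.66%). Both limma fits, on log2(TPM + 1) and log2(TPM + 0.1), called 0 lower there, beside 3.35% and 4.47% of all genes. For the nearest class, where edgeR called 0 higher, 1 was higher at an unadjusted p under 0.05 (beside 16.6%), and 0 were called higher by DESeq2 (beside 5.88%) or by the same limma fits (beside 0.223% and 0.459%). Over the 48 genes, Spearman's correlation between change and distance was 0.24, and between the size of change and distance -0.01. On the side of lower coordinates (22 genes) these were 0.30 and -0.40, and on the side of higher coordinates (26 genes) 0.08 and 0.26. *Mybph*, *Chil1*, *Adora1*, *Sox13*, *Pik3c2b* and *Klhdc8a*, which passed the filter through dCas9-KRAB alone, all lie on the side of lower coordinates. They could only be lower, so the filter partly sets the correlations on that side and over the 48 genes. The contrast between the sides is therefore no support for an effect of distance. The points share the same 6 libraries and are neighbors on a chromosome, so these values are descriptions. Of 47 pairs of adjacent tested genes, 21 had estimates of opposite sign and 28 differed by more than 2 on the log2 scale.

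Within 500 kb, the sides of the enhancer differed in their values. On the side of lower coordinates 3 of 6 tested genes fell, beside 4.67% of all genes tested, with a median of -6.30, or -3.75 when genes without a count in dCas9-KRAB-En5 are set at their bound. On the side of higher coordinates, where *Myog* itself lies, 1 of 8 fell, the median was 0.11 and 6 of 8 estimates were below 1 in size. The 3 on the side of lower coordinates, *Chil1*, *Mybph* and *Adora1*, passed the filter through dCas9-KRAB alone and could only be lower. With the replicate block 4 of 6 and 2 of 8 fell, beside 6.79% of all genes. The difference between the sides was not tested.

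*Mybph* (ENSMUSG00000042451, chr1:134193448-134201232, positive strand) starts 89.6 kb from the enhancer and encodes myosin-binding protein H of the thick filament. It was at 312, 1110 and 794 TPM in dCas9-KRAB and at 0.122, 0.0253 and 0 TPM in dCas9-KRAB-En5. No library of one group came near the other, and *Mybph* fell by 14.05 on the log2 scale (SE 1.09, adjusted p = 1.86e-05 in edgeR), beside -13.35 for *Myog*. It kept its call without each library in turn. Exons of *Mybph* and *Adora1* overlap on opposite strands, and 43.9% of the 50-base words of *Mybph* exons occur in other annotated genes as well.

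*Adora1* (ENSMUSG00000042429, chr1:134199223-134235431, negative strand) encodes the adenosine A1 receptor and was the called gene closest to the enhancer, at 47.7 kb. It had 60, 112 and 111 counts in dCas9-KRAB and none in any dCas9-KRAB-En5 library, which is at least 17.9-fold lower against a floor of 3 counts per library (adjusted p = 0.00322 in edgeR). Its dCas9-KRAB level was low, 0.443 ± 0.0686 TPM (SD, n = 3), and its groups did not overlap. The library kit does not mark strand, so reads from the exons shared with the far more abundant *Mybph* cannot be assigned to either gene by strand. Without any 1 of dCas9-KRAB replicates 1, 2 or 3, *Adora1* was no longer called (adjusted p = 0.0308, 0.0186 and 0.0111 in edgeR).

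*Chil1* (ENSMUSG00000064246, chr1:134182176-134190181, positive strand), a secreted chitinase-like glycoprotein, starts 101 kb from the enhancer next to *Mybph*. Its counts were 211, 456 and 360 in dCas9-KRAB and 0 in all 3 dCas9-KRAB-En5 libraries, at least 64.6-fold lower against the same floor (adjusted p = 0.000281 in edgeR). This call was kept without each library in turn. Thus *Chil1*, *Mybph* and *Adora1*, which are neighbors among the genes tested, were all near or at 0 in dCas9-KRAB-En5 cells.

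Farther out on that side, 2 small leucine-rich proteoglycans of the extracellular matrix also had lower levels in dCas9-KRAB-En5. *Prelp*, at 362 kb, was at 2.68, 11.7 and 8.52 TPM in dCas9-KRAB and at 0.131, 0.163 and 1.28 TPM in dCas9-KRAB-En5, so the groups did not overlap. Its log2 fold change of -3.34 (SE 1.07, adjusted p = 0.0524 in edgeR) did not pass, whereas it did with the replicate block (-4.46, adjusted p = 0.00121) and without dCas9-KRAB-En5 replicate 3 (-6.28, adjusted p = 0.000227). *Fmod*, at 246 kb, was at 0.134, 0.0970 and 0.196 TPM in dCas9-KRAB, had no count in dCas9-KRAB-En5 and was too low to be tested.

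The 2 broadly expressed genes within 500 kb on the same side, *Btg2* and *Atp2b4*, were not called in edgeR. *Btg2*, an antiproliferative gene that p53 induces, starts 204 kb away and was at 16.4, 15.2 and 17.6 TPM in dCas9-KRAB and at 66.4, 42.7 and 12.9 TPM in dCas9-KRAB-En5. *Atp2b4*, a calcium pump of the plasma membrane at 482 kb, was at 0.421 ± 0.184 TPM in dCas9-KRAB and 2.22 ± 1.83 TPM (SD, n = 3 each) in dCas9-KRAB-En5. Both had 2 dCas9-KRAB-En5 libraries above all dCas9-KRAB libraries and 1, replicate 3, within or below them. Their changes of 0.97 and 1.97 did not pass (adjusted p = 0.161 and 0.0466 in edgeR), and *Atp2b4* passed without dCas9-KRAB-En5 replicate 3 (2.29, adjusted p = 0.00265).

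**Figure D2:**
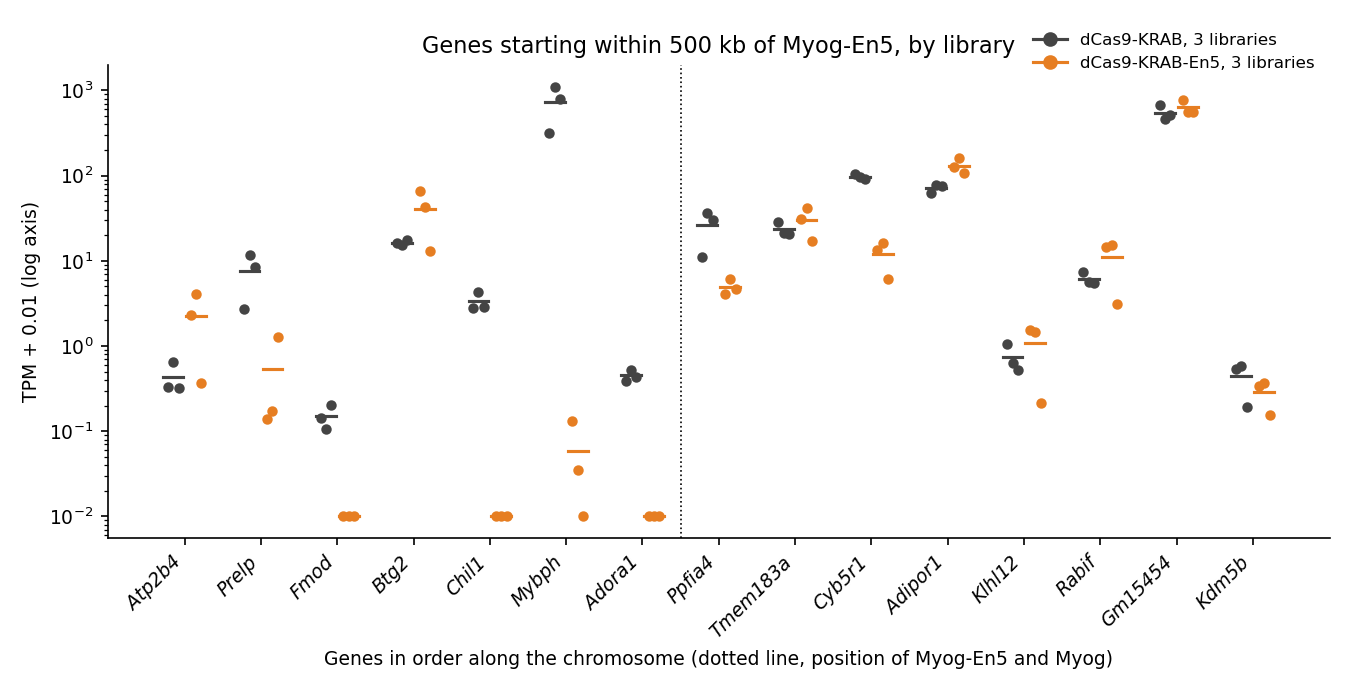
TPM plus 0.01 on a log axis (y axis) is shown for the 15 genes that start within 500 kb of Myog-En5, in chromosomal order (x axis), with 1 point per library and a line at the mean of the 3 libraries of each group. *Fmod*, *Chil1* and *Adora1* sit at the bottom of the plot in all 3 dCas9-KRAB-En5 libraries, and *Tmem183a* and *Gm15454* sit at similar heights in both groups.

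On the side of *Myog*, the nearest gene was *Ppfia4* (ENSMUSG00000026458), which encodes liprin alpha 4, a scaffold protein, and starts 49.3 kb from the enhancer. It was at 11.2, 36.8 and 30.1 TPM in dCas9-KRAB and at 4.04, 6.12 and 4.61 TPM in dCas9-KRAB-En5. Its groups did not overlap, and its log2 fold change of -2.43 (SE 0.55, adjusted p = 0.0128 in edgeR) lay just outside the cutoff for the adjusted p. It was called with the replicate block (-2.39, adjusted p = 0.0022) and without dCas9-KRAB-En5 replicate 3 (-2.97, adjusted p = 0.00171).

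*Cyb5r1* (ENSMUSG00000026456, chr1:134405559-134411740, positive strand), a member of the cytochrome b5 reductase family, starts 122 kb from the enhancer. Its level was 106, 95.5 and 91.2 TPM in dCas9-KRAB and 13.4, 16.1 and 6.12 TPM in dCas9-KRAB-En5. The means differed 8.21-fold, the replicates of dCas9-KRAB were close to each other, and *Cyb5r1* fell by 3.29 on the log2 scale (SE 0.45, adjusted p = 0.000781 in edgeR). The call was kept without each library in turn.

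None of the other genes within 500 kb on that side was called. *Adipor1*, the adiponectin receptor gene that starts within 10 kb of *Cyb5r1*, was at 62.0, 78.2 and 76.4 TPM in dCas9-KRAB and at 127, 159 and 108 TPM in dCas9-KRAB-En5. All libraries of the second group were higher, but the change of 0.76 (SE 0.46, adjusted p = 0.273 in edgeR) was not past the cutoffs. *Tmem183a*, *Klhl12*, *Rabif* and the histone demethylase gene *Kdm5b* had overlapping groups, with log2 fold changes of 0.10, 0.12, 0.46 and -0.84. Their SE values ran from 0.41 to 0.60, and a value that misses the cutoffs does not show that a gene was unchanged. *Gm15454*, a processed pseudogene at 546 ± 113 and 631 ± 121 TPM (SD, n = 3 each), shares 87.8% of its 50-base words with other genes, and its counts cannot be ascribed to this locus with certainty.

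The genes of the interval were next grouped by where they are mainly expressed, from general knowledge, to set muscle-restricted genes beside broadly expressed ones. The names of the lists are labels only. In dCas9-KRAB-En5, where the muscle markers were nearly absent, *Csrp1* stayed abundant and *Ppp1r12b* rose. The name of the muscle-restricted list does not describe these genes here. All 5 muscle-restricted genes with enough counts had groups that did not overlap, 4 lower and 1 higher in dCas9-KRAB-En5, beside 19.7% and 7.76% of all genes tested. Of these, *Mybph* and *Shisa4* fell and *Ppp1r12b* rose, beside 4.67% lower and 1.52% higher among all genes, and *Ppfia4* and *Csrp1* were not called. The median change was -2.43, beside 0.08 over all genes tested. The sixth gene of that list, *Lmod1*, a leiomodin mainly of smooth muscle, had no count in any library.

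*Shisa4* (ENSMUSG00000041889, chr1:135371057-135375237, negative strand), a transmembrane protein gene, starts 1092 kb from the enhancer. It was at 33.2, 85.2 and 67.6 TPM in dCas9-KRAB and at 2.17, 0.878 and 1.12 TPM in dCas9-KRAB-En5. The means differed 44.6-fold, and *Shisa4* fell by 5.54 on the log2 scale (SE 0.63, adjusted p = 0.000216 in edgeR), with a call in each fit that left out a library. The genes tested next to it on either side, *Timm17a* of the mitochondrial import machinery and the importin gene *Ipo9*, had changes of -0.78 and 0.20 that did not pass.

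*Ppp1r12b* (ENSMUSG00000073557, chr1:134754658-134955942, negative strand) encodes a regulatory subunit of myosin phosphatase and starts 672 kb from the enhancer. It was at 0.209, 0.478 and 0.359 TPM in dCas9-KRAB and at 5.93, 5.09 and 0.645 TPM in dCas9-KRAB-En5, where replicate 3 was only slightly above the highest dCas9-KRAB library. It rose by 3.07 on the log2 scale (SE 0.60, adjusted p = 0.0064 in edgeR), and was the only gene of the muscle-restricted list with a positive change. Leaving out any of dCas9-KRAB replicates 1 to 3 or of dCas9-KRAB-En5 replicates 1 and 2 ended the call, with changes of 2.65 to 3.24 and adjusted p = 0.0133 to 0.0507 in edgeR. An annotated gene, *Gm28892*, shares exon sequence with it on the opposite strand.

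*Csrp1*, which encodes a LIM domain protein of the actin cytoskeleton, starts 1436 kb away. It was the most abundant gene of the muscle-restricted list in dCas9-KRAB-En5 cells, where the 10 muscle markers summed to only 15.4 to 23.5 TPM. It was at 182, 258 and 230 TPM in dCas9-KRAB and at 71.8, 97.4 and 176 TPM in dCas9-KRAB-En5. Only a narrow gap separated the groups, from 176 to 182 TPM, and the change of -0.75 (SE 0.63, adjusted p = 0.438 in edgeR) did not pass. Without dCas9-KRAB-En5 replicate 3 it was -2.03 (adjusted p = 0.00158).

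For comparison, the 3 muscle genes that were left out of the interval by name lie still farther from the enhancer. *Tnni1* and *Tnnt2*, which encode troponin subunits of the thin filament, start 1496 and 1553 kb from it and fell by 11.04 and 6.30 on the log2 scale (adjusted p = 1.91e-05 and 3.37e-05 in edgeR). *Cacna1s*, the voltage sensor of excitation-contraction coupling, starts 1769 kb from it and fell by 9.06 (adjusted p = 0.000113 in edgeR). With *Mybph*, *Shisa4* and *Ppfia4* among them, the muscle genes with the lowest estimates apart from *Myog* were *Mybph* at 89.6 kb and *Tnni1* at 1496 kb. The 10 muscle markers given above, none of which lies in the interval, had a median change of -10.33.

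Of the 26 broadly expressed genes, all of which were tested, 1 fell (*Cyb5r1*) and 0 rose in edgeR, beside 4.67% and 1.52% of all genes tested. The median change was 0.30, 16 estimates were below 1 in size, and the groups overlapped in 21. In 4 every dCas9-KRAB-En5 library was lower and in 1 every one was higher, beside 19.7% and 7.76% of all genes. At an unadjusted p under 0.05, 3 were lower and 6 higher, beside 16.3% and 16.6%. DESeq2 called 2 lower and 1 higher, beside 8.66% and 5.88%. Both limma fits called 1 lower and 0 higher, beside 3.35% and 0.223% on log2(TPM + 1) and 4.47% and 0.459% on log2(TPM + 0.1).

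The broadly expressed genes differed in level and in direction. *Snrpe*, a core protein of the spliceosome, was at 74.2 ± 36.6 TPM in dCas9-KRAB and 57.0 ± 23.0 TPM (SD, n = 3 each) in dCas9-KRAB-En5. *Mdm4*, an inhibitor of p53, was at 1.14, 0.731 and 0.533 TPM in dCas9-KRAB and at 8.97, 5.93 and 0.594 TPM in dCas9-KRAB-En5, so the groups overlapped through replicate 3, and its change of 2.23 (adjusted p = 0.0369 in edgeR) was not called. *Pik3c2b*, a class II phosphoinositide 3-kinase gene, had 1 count in all dCas9-KRAB-En5 libraries together. Its ratio of dCas9-KRAB over dCas9-KRAB-En5 was 66.5 with a 95% counting interval of 11.7 to 2652, and its adjusted p of 0.0176 in edgeR did not pass. *Phlda3* and *Tmem9*, at 211 ± 48.1 and 68.4 ± 1.70 TPM (SD, n = 3) in dCas9-KRAB, had changes of -0.73 and -0.54 that were not called.

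**Figure D3:**
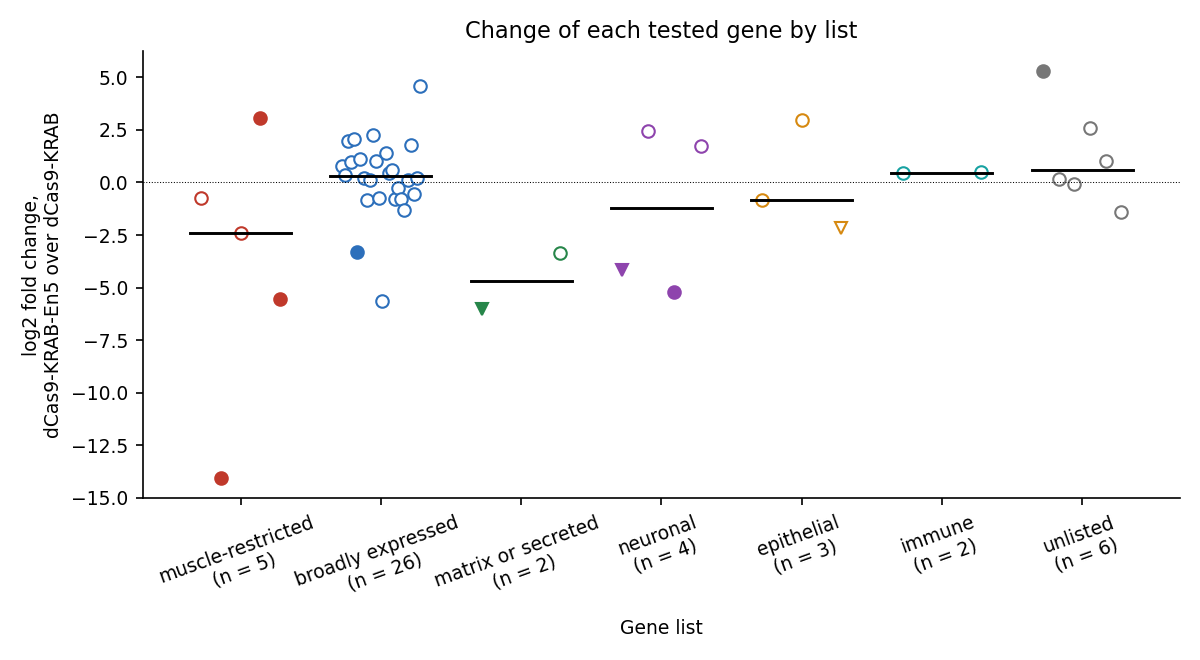
The log2 fold change (y axis) of each tested gene is shown by gene list (x axis), with filled symbols for calls, triangles for genes drawn at their bound and a black line at the median of the list. The muscle-restricted genes spread from -14.05 to 3.07. Of the 26 broadly expressed genes, 16 have estimates below 1 in size, and the others lie farther out on both sides of 0. The highest broadly expressed gene lies above every muscle-restricted gene, and the lowest lies below all of them except *Mybph*.

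The remaining genes fell into smaller lists. Among the 4 neuronal genes, *Adora1* and *Klhdc8a* fell, beside 4.67% of all genes tested. Both had passed the filter through dCas9-KRAB alone and could only be lower. *Nav1* and *Kif21b*, a microtubule-associated protein and a kinesin, had changes of 1.74 and 2.43 that were not called. *Klhdc8a* (ENSMUSG00000042115, chr1:132298626-132307357, positive strand), a kelch domain gene at the far edge of the interval, was at 0.777, 1.70 and 1.84 TPM in dCas9-KRAB and at 0.0111, 0.0138 and 0.0716 TPM in dCas9-KRAB-En5. It fell by 5.22 on the log2 scale (SE 1.05, adjusted p = 0.00732 in edgeR), 1984 kb from the enhancer. The call held without dCas9-KRAB-En5 replicate 3 but was lost without any other library, with changes of -4.65 to -5.53 and adjusted p = 0.0146 to 0.0374 in edgeR.

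In the list of matrix or secreted proteins, *Chil1*, which passed the filter through dCas9-KRAB alone, fell and *Prelp* was not called, beside 4.67% of all genes lower. No gene of the epithelial list was called in edgeR (0 of 3), beside 4.67% lower and 1.52% higher of all genes tested. At an unadjusted p under 0.05 1 of these 3 was lower (beside 16.3%), and both limma fits called 0 lower (beside 3.35% and 4.47%). DESeq2, which covered 5 genes of this list, called 2 lower, *Sox13* and *Lad1* (beside 8.66%). *Sox13*, a SoxD transcription factor gene, had no count in dCas9-KRAB-En5 and 0.145 ± 0.0326 TPM (SD, n = 3) in dCas9-KRAB, at least 4.46-fold lower (adjusted p = 0.0212 in edgeR, not called). *Plekha6* was at 0.0388 ± 0.0461 and 0.417 ± 0.429 TPM with overlapping groups and was not called. *Lad1*, a basement membrane anchoring protein gene, had no count in dCas9-KRAB-En5 and was too low to be tested in edgeR.

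The 2 tested genes of the list labelled immune were *Ptpn7*, a phosphatase of blood cells, and *Ptprv*, annotated as a processed transcript. The label does not establish that *Ptprv* is an immune gene. They had changes of 0.42 and 0.51 and overlapping groups (adjusted p = 0.516 and 0.713 in edgeR). The macrophage markers had a median change of 0.53 but ran from -1.84 to 2.75, and whether the genes of this list follow them was not tested. Neither gene of this list passed an unadjusted p under 0.05 or was called by DESeq2 or limma. *Ptpn7* was at 5.36, 9.23 and 6.82 TPM in dCas9-KRAB and at 13.6, 18.1 and 4.20 TPM in dCas9-KRAB-En5, where replicate 3 was again lower than the others.

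Of the 12 genes on no list, 6 were tested and 1 rose, beside 1.52% of all genes tested. *F730311O21Rik* (ENSMUSG00000100658, chr1:132342023-132349626, positive strand), annotated as a lincRNA, starts 1941 kb from the enhancer and passed the filter only with the dCas9-KRAB-En5 libraries. It was at 0.210, 0.0932 and 0.0164 TPM in dCas9-KRAB and at 6.21, 11.0 and 0.457 TPM in dCas9-KRAB-En5, so the groups did not overlap although the second spanned a wide range. It rose by 5.29 on the log2 scale (SE 1.03, adjusted p = 0.00615 in edgeR), and without dCas9-KRAB replicate 1, 2 or 3 it was no longer called (adjusted p = 0.0329, 0.0365 and 0.0142). *Klhdc8a* and *F730311O21Rik*, the outermost calls, thus lie within 50 kb of each other and changed in opposite directions.

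The calls depended on dCas9-KRAB-En5 replicate 3 more than on any other library. Its TPM was below that of both other dCas9-KRAB-En5 libraries for 34 of the 48 genes tested (70.8%), beside 77.0% of all genes tested. Without it, 13 genes near *Myog* fell and 12 rose, beside 14.0% and 11.7% of all genes, and the added genes included *Csrp1*, *Phlda3*, *Tmem9* and *Pik3c2b* among the lower and *Mdm4*, *Ppp1r15b*, *Kif21b* and *Camsap2* among the higher. The 6 genes that fell and the 2 that rose with all libraries were also called without it. Of the 26 broadly expressed genes, 10 were called without that library, some lower and some higher, beside the same 14.0% and 11.7% of all genes. Leaving out dCas9-KRAB replicate 1, 2 or 3 left 4 lower and 0 higher in each case, beside 1.43%, 2.02% and 2.47% of all genes lower and 0.0397%, 0.133% and 0.152% higher. Leaving out dCas9-KRAB-En5 replicate 1 or 2 left 5 lower and 1 higher, beside 3.26% and 2.70% lower and 0.847% and 0.779% higher.

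**Figure D4:**
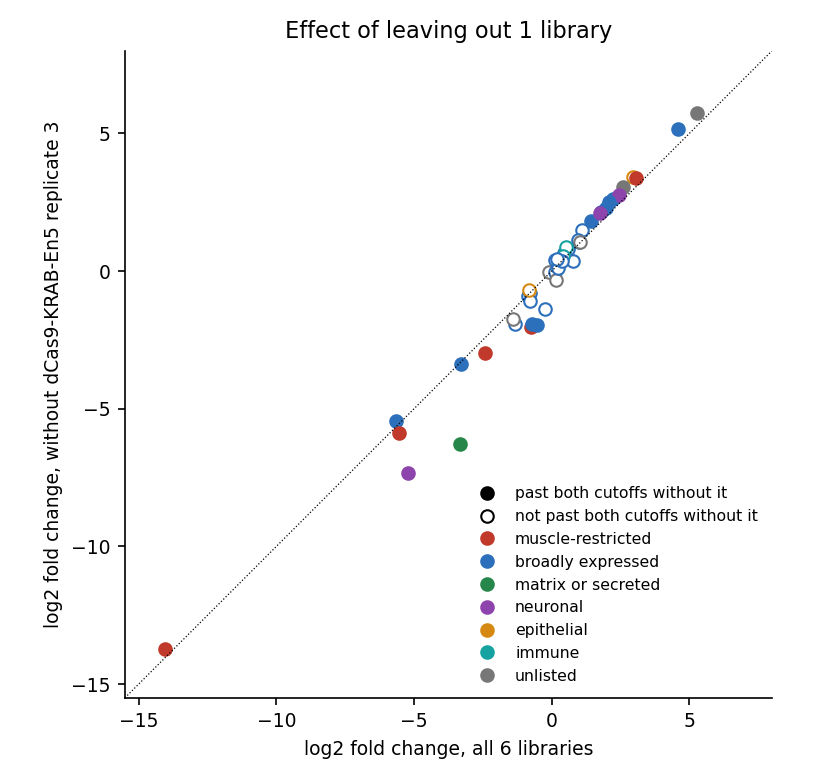
The log2 fold change without dCas9-KRAB-En5 replicate 3 (y axis) is plotted against that with all 6 libraries (x axis) for the tested genes with counts in both groups, with colors for the gene list, filled circles for genes past both cutoffs without that library and a dotted line where both values are equal. Most genes lie near the line, *Prelp* lies below it at -3.34 and -6.28, and more symbols are filled than the 8 calls with all libraries.

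Promoter sequences were then compared between the lists. RefSeq promoters (GRCm38.p6, 250 bases before to 50 bases after the start) were matched to 40 of the 57 genes. The E-box CANNTG, the motif of MYOG and related factors, was searched on both strands, as was its variant CAGCTG, which is contained in it. CAGCTG was found in 3 of the 5 muscle-restricted promoters (*Mybph*, *Ppfia4* and *Shisa4*) and in 1 of 23 broadly expressed ones (*Mdm4*), beside 16.3% of all 32851 promoters. CANNTG was found in all 5 and in 8 of the 23, beside 72.3% of all promoters, and a MEF2 site in none of either list, beside 3.19%.

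Of the 6 genes that fell, 5 held CANNTG and 2 held CAGCTG, beside 72.3% and 16.3% of all promoters. With 6 promoters, 4 of them of genes that passed the filter through dCas9-KRAB alone, these counts show no link between motif and change. The promoters of the muscle-restricted genes with CAGCTG and that of *Cyb5r1*, the broadly expressed gene that fell in edgeR, follow in the direction of transcription with each CANNTG in capitals. Their positions are chr1:134193198-134193497 on the positive strand for *Mybph*, chr1:134332879-134333178 on the negative strand for *Ppfia4*, chr1:135375014-135375313 on the negative strand for *Shisa4* and chr1:134405531-134405830 on the positive strand for *Cyb5r1*. *Ppfia4* held 5 matches, 2 of them CAGCTG, *Mybph* and *Shisa4* held 1 each, and *Cyb5r1* held 2 that were not CAGCTG. A match describes the letters of the window and not binding.
Mybph: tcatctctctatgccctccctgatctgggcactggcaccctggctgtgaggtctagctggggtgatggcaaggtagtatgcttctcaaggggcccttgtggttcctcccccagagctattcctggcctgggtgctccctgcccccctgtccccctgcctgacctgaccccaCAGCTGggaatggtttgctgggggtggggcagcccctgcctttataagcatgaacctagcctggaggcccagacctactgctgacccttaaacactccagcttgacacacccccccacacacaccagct
Ppfia4: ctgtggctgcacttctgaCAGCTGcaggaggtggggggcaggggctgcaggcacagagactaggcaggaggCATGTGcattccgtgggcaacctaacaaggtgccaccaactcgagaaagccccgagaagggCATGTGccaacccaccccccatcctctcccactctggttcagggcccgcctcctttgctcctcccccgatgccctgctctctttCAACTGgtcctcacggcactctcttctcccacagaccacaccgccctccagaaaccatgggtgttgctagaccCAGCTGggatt
Shisa4: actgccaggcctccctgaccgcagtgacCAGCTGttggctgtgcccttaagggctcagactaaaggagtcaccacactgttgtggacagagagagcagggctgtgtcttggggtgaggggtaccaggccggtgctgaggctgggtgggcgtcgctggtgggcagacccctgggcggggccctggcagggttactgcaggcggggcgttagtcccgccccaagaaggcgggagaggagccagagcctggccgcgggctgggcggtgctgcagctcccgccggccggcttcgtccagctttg
Cyb5r1: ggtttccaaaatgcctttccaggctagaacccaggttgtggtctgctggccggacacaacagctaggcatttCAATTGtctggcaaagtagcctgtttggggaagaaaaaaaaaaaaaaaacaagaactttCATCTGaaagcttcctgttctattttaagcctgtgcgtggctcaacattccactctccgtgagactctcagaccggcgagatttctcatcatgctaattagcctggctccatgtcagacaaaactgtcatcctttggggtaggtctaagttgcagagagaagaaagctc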

How the data were processed

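RNA-Seq of 6 libraries was used, 3 of dCas9-KRAB and 3 of dCas9-KRAB-En5 cells, grouped by their labels. The authors aligned the reads to GRCm38 with HISAT2 2.2.1, summarized them over genes by featureCounts, and deposited raw counts and TPM for every library. The annotation release and strand setting are not given in the sources used here. Genes missing from a file were taken as 0. The length that a gene's count and TPM imply was within 1% of its GENCODE exon length for 98.62% of genes with counts in all libraries, and 23186 of 23231 IDs matched the annotation.

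Counts were compared with edgeR 4.0.16 in R 4.3.3 (TMM, filterByExpr with a minimum count of 10 and total of 15, glmQLFit and glmQLFTest, condition alone, Benjamini-Hochberg adjustment over all 14378 genes tested). Each SE was computed from the estimate and the F statistic. The cutoffs for calls were 0.01 for the adjusted p and 1 for the size of the log2 fold change. A test of 3 against 3 libraries by exact permutation cannot go below p = 0.1, so none is given. Folds against a group without counts used 3 counts per library. Sequence sharing was measured with 50-base words of annotated exons.

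Alternatives were the replicate block, DESeq2 1.42.0, limma 3.58.1 applied to TPM with a pseudocount of 1 or 0.1 on the log2 scale, other scalings and filters, and leaving out each library. Same-numbered libraries of both groups deviated together from their group means (correlations of 0.262, 0.214 and 0.29 across genes). The mean for different numbers was -0.138. Deviations from a group mean cancel within the group, so this value follows largely from the others and adds no support for pairing. The replicate block, an alternative, pairs libraries by number, whereas the main fit used condition alone and left any pairing out. Whether those cultures were handled together is not stated in the labels. Every pair of replicates of a group differed by more than sampling noise (the smallest chi-square divided by its degrees of freedom was 110.2).

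On counts simulated with each gene's own dispersion, edgeR called 14.3% of genes changed by 2 on the log2 scale, 77.6% at 4, 95.8% at 6 and 100% at 8, and 0 of 13809 unchanged genes.

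The genes near *Myog*, the gene lists and the tests were chosen with earlier results of these data known. Genes named are all calls, all muscle-restricted genes, all tested genes within 500 kb of Myog-En5, the 2 smallest adjusted p of each other list, the 3 most abundant genes, and *Tnni1*, *Tnnt2* and *Cacna1s*. *Snrpe*, *Mdm4*, *Phlda3*, *Tmem9*, *Nav1*, *Kif21b*, *Timm17a*, *Ipo9*, *Ppp1r15b*, *Camsap2*, *Lad1* and *Fmod* were named after their values were seen.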

Additional observations from a re-analysis of the deposited data

How the results depend on the processing

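With 3 libraries per group and the spread seen here, changes below about 4 on the log2 scale were often missed in simulated counts, and levels under the floor of 3 counts could not be resolved. Of the 6 genes called lower near *Myog*, DESeq2 called all. It called 11 of the 57 genes lower, beside 8.66% of all genes it tested. A filter of at least 10 counts in every library, which removes genes without counts in 1 group, left 2, beside 2.91%. Against the 2 called higher, DESeq2 gave 4 (beside 5.88% of all genes), the stricter filter 1 (beside 1.76%) and no filter 6 (beside 4.32%). The limma fits with pseudocounts of 1 and 0.1 gave 0 (beside 0.223% and 0.459%), as did total counts alone (beside 0.487%). An adjusted p of at most 0.05 gave 5 (beside 7.43%). The genes within 1 Mb held 1, beside 1.52% of all genes. The muscle-restricted genes called lower went from 2 to 1 under the stricter filter, and the broadly expressed genes called went from 1 to 3 with DESeq2 and with no filter. The correlation of change with distance was 0.17 with DESeq2 and 0.17 under the stricter filter, and that of its size 0.19 under the stricter filter. The cause of these shifts was not tested.

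Leaving out 1 library at a time gave 4 to 13 genes lower, 0 to 12 higher, 2 to 4 muscle-restricted genes lower and 1 to 10 broadly expressed genes called. The highest values came without dCas9-KRAB-En5 replicate 3, beside 14.0% lower and 11.7% higher among all genes in that fit. The medians ranged from -0.05 to 0.29 over all genes near *Myog*, -2.97 to -2.17 for muscle-restricted and 0.22 to 0.38 for broadly expressed genes. The correlations ranged from 0.17 to 0.21 for the change and from -0.08 to -0.01 for its size, and *Myog* from -18.64, with no count left in dCas9-KRAB-En5 without its replicate 1, to -12.73. The replicate block gave 8 lower and 2 higher, 3 muscle-restricted genes lower, 1 broadly expressed gene called, a median of 0.13, correlations of 0.22 and 0.03, and -13.77 for *Myog*. Beside *Ppfia4* and *Prelp*, pairing the replicates by this block changed no call. No named gene that was called in either of the fits compared changed sign.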
